A study of Mus musculus with 2 samples.

Results

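Primitive endoderm-like cells were present in a culture of mouse induced pluripotent stem cells (iPSCs, differentiated cells returned by reprogramming factors to an embryonic, pluripotent state) that lacked serum response factor. They were found by a fixed rule. A cell of the knockout library was kept when it had at least 1000 detected genes and at most 10% of its unique molecular identifiers (UMIs, each a tag for 1 captured RNA molecule) from mitochondrial genes. It was called endoderm-like when it held at least 10 UMIs in sum over Gata6, Gata4, Sox17, Pdgfra, Dab2, Cubn, Lrp2 and Amn. Of the 997 kept knockout cells, 101 met the rule (10.1%, exact binomial interval 8.33 to 12.2), out of 1073 knockout cells and 2027 cells of the series in all. They were compared with 439 reference cells of the same library, which held none of these UMIs, had 1 to 10% mitochondrial UMIs and had fewer than 5 UMIs over the fibroblast genes Col1a2, Col3a1 and Acta2.

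The series holds 1 droplet library (10x Genomics Chromium, Illumina NovaSeq) from SRFΔ/Δ iPSCs, labelled KO, and 1 from SRFf/f iPSCs, labelled WT, whose floxed Srf alleles are intact. Both were grown in medium with serum. How Srf was deleted, how many clones each library stands for and whether feeder cells were used is not given in the sources used here. With 1 library per genotype and cells that are not replicates, no test was possible, and every interval below is a 95% interval of counting error only.

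Primitive endoderm is the extraembryonic layer that separates from the epiblast in the blastocyst. The factor GATA6 drives the choice and opposes NANOG, while FGF4 made by epiblast cells acts through ERK on the neighbours that become endoderm. Its descendants are the parietal endoderm, which lays down a thick basement membrane, and the visceral endoderm, an absorptive and secretory epithelium that also patterns the embryo.

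The 8 genes that chose the cells are described here and support nothing further. Dab2, an endocytic adaptor, gave 1778 UMIs over the 101 cells. The receptors of the cubilin complex gave 1451 (Cubn), 957 (Lrp2) and 463 (Amn). The factors Gata6, Gata4 and Sox17 gave 664, 320 and 161, and the receptor Pdgfra gave 296. A cell held 50 such UMIs in the median and 231 at most. Just outside the threshold lay 5 cells with 8 UMIs and 4 with 9, and just inside it lay 2 cells with 10 and 2 with 11. The cells outside held 0 to 10 UMIs of Foxq1 and 0 to 25 of Sparc, against 0 to 19 and 15 to 42 in the cells inside.

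In 6 of the 101 cells, which met the rule through 1 gene alone, other markers went against the label. Of these, 3 met the rule through Dab2 alone (16, 15 and 12 UMIs), held 927, 258 and 300 UMIs of 9 macrophage and blood genes such as Pf4 and Lyz2, and had 0 UMIs of Foxq1, Col4a1 and Lama1. The other 98 cells held at most 2 macrophage UMIs each. The limit of 50 macrophage UMIs that sets the 3 macrophage-marker cells apart was chosen after the cells were seen. Of the 98 cells, 95 held at least 3 of the 8 genes, 84 at least 5, and 29 all 8. The other 3 of the 6 cells met the rule through Gata6 alone. Over them, Foxq1 and Srgn had 0 UMIs, Col4a1 2 and Lama1 1, while Pou5f1 stood at 959 CPM, Sox2 at 152 CPM and Tdgf1 at 1254 CPM. They remain among the 98 cells. Without them, 95 cells, the log2 ratio over the reference cells moved from -3.39 to -3.92 for Sox2 and from -2.63 to -3.36 for Tdgf1. The 95 cells do not all fit the label closely. For example, 1 cell held 0 UMIs of Foxq1, Lama1 and Srgn, with 39 of Pou5f1 and 20 of Tdgf1. Another, with 0.0457% mitochondrial UMIs, held 6 of Foxq1 but 0 of Col4a1, Lama1, Sparc, Srgn and Ctsl, with 23 of Pou5f1. All values below are over the 101 cells unless the 98 are named, and a value is given for both where it differs in call.

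The 101 cells held 2380356 UMIs, with a median of 22384 per cell (5884 to 54159) and 4344 detected genes. The reference cells held 10550317 UMIs with a median of 24224, so depth was similar. In the wild-type library, 3 of 919 kept cells met the rule (0.326%, exact binomial interval 0.0674 to 0.951). Of these, 2 were macrophage-marker cells, and the remaining cell held 126 UMIs of the 8 genes, 27 of Foxq1, 90 of Sparc and 1 of Pou5f1 among 46778. Below the threshold, 1 wild-type and 21 knockout cells held 5 to 9 UMIs. A doublet caller marked 2 of the 997 kept knockout cells, of which 1 was endoderm-like, and 5 of the 919 kept wild-type cells. The share of knockout cells called was too low to count as working, so doublets cannot be taken as removed. The 2 cell barcodes that the libraries shared were neither endoderm-like nor reference cells.

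**Figure D1:**
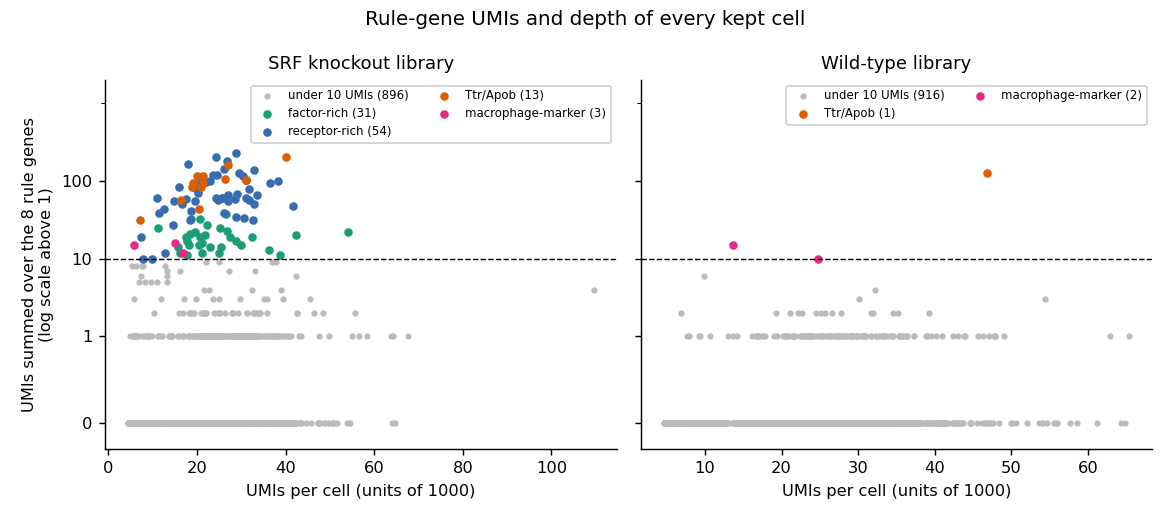
Each point is a kept cell, with its total UMIs on the x axis (in units of 1000) and its UMIs summed over the 8 rule genes on the y axis (log scale above 1), in the knockout (left) and wild-type library (right). The dashed line is the threshold of 10 UMIs, which 101 knockout and 3 wild-type cells reached, and colours mark the subsets described further on.

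For each gene, UMIs were summed over the cells of a class and scaled to CPM (a gene's UMIs per 1000000 UMIs of the class), and the log2 ratio of endoderm-like over reference cells was taken with 0.5 UMIs added to each sum. Of the 6943 genes whose level averaged at least 10 CPM between the classes, called measured below, 1056 (15.2%) were at least 2-fold higher in the endoderm-like cells and 348 (5.01%) at least 2-fold lower, with a median log2 ratio of 0.12. Over the 98 cells the counts were 1024 (14.8%) and 354 (5.12%) of 6919. Against 751 wild-type reference cells chosen alike, they were 1204 (17.5%) and 376 (5.47%) of 6873. Of all genes past 2-fold, 75.2% were higher by this scaling, 63.3% with TMM scaling and 64.4% with median-of-ratios scaling. Since the rule chose the cells from the same counts, these ratios describe the cells and test nothing, and a gene absent from the reference cells enters the count only if it is high in the endoderm-like cells. The shares over all genes, 15.2% higher and 5.01% lower, are the background for the count of each gene list below.

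Transcription factors of the extraembryonic endoderm outside the rule were high in the cells. All 6 of the 9 listed factors that reached 10 CPM were at least 2-fold higher, with a median log2 ratio of 8.35, or 7.07 with factors absent from the reference cells set at their lower bound. Foxq1, a forkhead factor on chromosome 13 (31556134 to 31560976, plus strand, GRCm38), ranked highest of all genes of at least 50 CPM. It stood at 435 CPM (409 to 463) in the endoderm-like and 1.14 CPM in the reference cells, a log2 ratio of 8.52 (7.77 to 9.54). Per cell, the 98 cells held 0 to 35 UMIs of Foxq1 with a median of 9, and 4 of them held none. No reference cell held more than 1, so 90 of the 98 cells lay above every reference cell.

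Shares of cells were compared after each cell was thinned to 9237 UMIs, which 97 endoderm-like and 389 reference cells could give. Foxq1 was then seen in 90.7% of the endoderm-like and 0.514% of the reference cells (93.1% and 2.73% without thinning). The reference share is not a full measure of free RNA, since the reference cells were chosen to hold none of the 8 genes. In 161 knockout cells with up to 1 rule UMI per 10000, Foxq1 stood at 2.34 CPM, against 1.14 CPM in the reference cells. Foxa2, a forkhead factor of definitive and visceral endoderm, had 102 UMIs against 0 and was at least 151-fold higher, counting 3 UMIs over the reference cells as the floor. Sox7, a relative of Sox17, had 81 against 0 and was at least 120-fold higher. These factors were spread over 52 and 47 of the 101 cells.

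The remaining factors were weaker or sparser. Cited1, a transcriptional co-activator, stood at 105 against 3.32 CPM, and Hhex, a homeobox factor of anterior visceral endoderm, at 42.9 against 9.86 CPM, a log2 ratio of 2.12 (1.71 to 2.53). Hnf4a, the regulator of lipoprotein genes in visceral endoderm and liver, had 17 UMIs in 14 cells against 1 in the reference cells.

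Basement membrane genes were higher as a group. Of the 12 measured genes of 13 listed, 10 were at least 2-fold higher, 1 was within 2-fold and 1 was lower, with a median log2 ratio of 3.18 beside 0.12 over all genes. Summed over the list, the level was 5025 CPM in the endoderm-like and 356 CPM in the reference cells. The type IV collagen chains Col4a1 and Col4a2, which form the sheet of the basement membrane, were high together. Col4a1 stood at 565 CPM (535 to 596) against 3.51, a log2 ratio of 7.31 (6.86 to 7.84), and Col4a2 at 497 CPM (469 to 527) against 2.75, a log2 ratio of 7.48 (6.97 to 8.08). The 98 cells held 0 to 51 UMIs of Col4a1 with a median of 12, no reference cell held more than 2, and 81 of the 98 cells exceeded that. In thinned cells both chains were seen in 85.6% of the endoderm-like cells, against 3.34% (Col4a1) and 2.83% (Col4a2) of the reference cells.

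These chains are neighbours. Col4a1 lies at chr8:11198423-11312826 on the minus strand and Col4a2 at chr8:11312805-11449287 on the plus strand (GRCm38), so that the annotated 5′ ends overlap and the genes are read away from each other. The sequence over both starts is shown because it is the stretch the pair shares, at chr8:11312801-11312830, plus strand, from the promoter table of RefSeq (GRCm38.p6). Capitals mark the 22 bases from the start of Col4a2 to the start of Col4a1.
Col4a1/Col4a2: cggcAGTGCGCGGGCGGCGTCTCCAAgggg
The window from 250 bases before to 50 after the start was 74.0% G and C for Col4a1 and 73.7% for Col4a2, against a median of 52.7% over all promoters. Of the 13 listed genes, 10 matched that table, with 12 promoters, and Lama1, Lamc1 and Nid2 had no entry. GATA motifs (AGATAA or TGATAA, either strand) were found in 0 of the 12 and in 18.6% of all 32851 promoters of 300 bases. The SOX motif (ACAAT, either strand) was found in 1 of the 12, that of Lamb2, and in 31.0% of all. These are letter matches in a short window and say nothing about binding of the factors.

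The laminin chains followed. Lama1, the alpha chain of the early embryo's laminin, stood at 396 against 6.82 CPM, a log2 ratio of 5.85 (5.51 to 6.23). Its partners Lamb1 and Lamc1 stood at 405 against 11.9 CPM and 408 against 32.1 CPM. Thus all chains of that trimer were high in the cells. Lama1 ranged from 0 to 59 UMIs over the 98 cells with a median of 7.5, and 62 cells exceeded the highest reference cell, which held 3. Lama5, another alpha chain, was within 2-fold (34.4 against 21.8 CPM).

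Sparc, a collagen-binding glycoprotein secreted in bulk by parietal endoderm, stood at 2280 CPM against 95.4, a log2 ratio of 4.58 (4.48 to 4.68). The 98 cells held 0 to 376 UMIs with a median of 43.5, and the reference cells 0 to 26 with a median of 2, so the classes overlapped and 65 cells lay above every reference cell. Hspg2 (perlecan, a heparan sulfate proteoglycan) stood at 228 against 35.3 CPM. The nidogens, which link laminin to collagen, stood at 94.9 against 22.2 CPM (Nid2) and 33.6 against 14.2 CPM (Nid1). Col18a1, the source of endostatin, was the exception and was lower, at 19.7 against 76.7 CPM, a log2 ratio of -1.94 (-2.41 to -1.53).

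**Figure D2:**
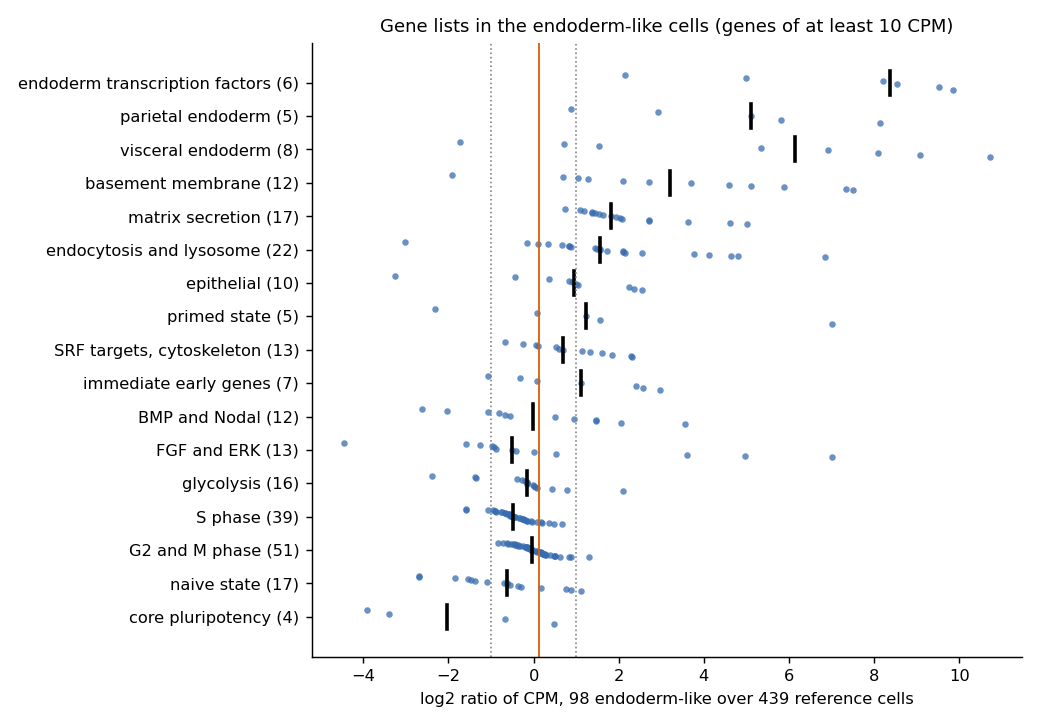
Each point is a gene of at least 10 CPM, placed by its log2 ratio of CPM in the 98 endoderm-like cells without macrophage markers over the 439 reference cells, for 17 gene lists (number of genes in brackets). Black bars are list medians, the orange line the median over all genes and dotted lines mark 2-fold. The basement membrane and matrix secretion lists lie to the right of the orange line except for Col18a1, and the core pluripotency list spans both sides.

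The machinery that folds and exports collagen was higher too. Of 17 measured genes of the matrix secretion list, 16 were at least 2-fold higher and none lower, with a median log2 ratio of 1.80. Serpinh1, the collagen chaperone HSP47, stood at 1489 against 47.0 CPM, a log2 ratio of 4.98, and 83 of the 98 cells held more of its UMIs than any reference cell. The collagen prolyl hydroxylase subunits P4ha2 and P4ha1 had log2 ratios of 4.59 and 3.60, and the lysyl hydroxylase Plod2 and the collagen galactosyltransferase Colgalt1 had 2.68 and 2.70. General chaperones of the endoplasmic reticulum differed by less. Calr stood at 1431 against 381 CPM and P4hb at 708 against 203 CPM, and Pdia4 stayed within 2-fold at a log2 ratio of 0.72. Over 95 thinned cells without macrophage markers, the summed basement membrane and matrix secretion lists had a Pearson correlation of 0.84, a description of points that share 1 library.

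Genes of uptake and lysosomal digestion, the work of visceral endoderm, were higher as well. Of 22 measured genes of endocytosis and the lysosome, 14 were at least 2-fold higher (15.2% over all genes) and 1 was lower (5.01%). The median log2 ratio was 1.91, or 1.56 over the 98 cells. Lrpap1, the chaperone of LRP2 and related receptors, stood at 599 against 24.3 CPM, a log2 ratio of 4.62. Among the cysteine proteases, Ctsl stood at 1339 against 77.5 CPM, Lgmn at 423 against 14.8 CPM, and Ctsh at 169 against 1.42 CPM. The membrane protein Lamp1 stood at 766 against 174 CPM and the clathrin heavy chain Cltc at 374 against 88.0 CPM. The transferrin receptor Tfrc, which imports iron, was the 1 lower gene, at 7.56 against 63.9 CPM, a log2 ratio of -3.04 (-3.84 to -2.41). The macrophage-marker cells carried part of some proteases. Ctsb had a log2 ratio of 2.58 over 101 cells and 1.71 over 98, and Ctsl one of 4.11 over either.

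Genes listed for either descendant of primitive endoderm were higher in the cells. Of 5 measured parietal genes, 5 were at least 2-fold higher, and 4 over the 98 cells, where the intermediate filament gene Vim moved within 2-fold. Srgn, the core protein of a secretory proteoglycan, stood at 881 CPM (843 to 919) against 3.13, a log2 ratio of 8.12. It was seen in 76.3% of thinned endoderm-like cells and 1.29% of reference cells, and 16 of the 98 cells held none. Pth1r, the receptor for parathyroid hormone-related protein and a classic mark of parietal endoderm, stood at 81.1 against 1.42 CPM, and Tfpi, an inhibitor of coagulation, at 238 against 31.6 CPM.

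Of 8 measured visceral genes, 6 were at least 2-fold higher (15.2% over all genes) and 1 lower (5.01%). The median log2 ratio was 6.11, or 5.88 with genes absent from the reference cells at their bound. Dkk1, a secreted WNT inhibitor of anterior visceral endoderm, stood at 114 against 0.379 CPM and was seen in 51.5% and 0.514% of thinned cells. The trypsin inhibitor Spink1 stood at 647 against 16.1 CPM. Ttr, the carrier of thyroid hormone and retinol, had 187 UMIs against 0 and was at least 276-fold higher, but in only 12 cells, with 40.6% of its UMIs in 1 cell. Apob, the lipoprotein backbone, had 59 UMIs against 0 in 18 cells. Afp, the hallmark of later visceral endoderm, had 0 UMIs in either class, which allows up to 1.26 CPM in the endoderm-like cells. The calcium-binding gene S100g (118 against 0.948 CPM) was concentrated, with 34.4% of its UMIs in 1 cell. Apoa2, a lipoprotein component, was lower, with a log2 ratio of -1.75.

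Among the remaining genes ranked highest, Amot (angiomotin, an apical adaptor of the Hippo pathway) stood at 334 against 2.56 CPM, Pga5 (a pepsinogen) at 210 against 0.948 CPM, and Flrt3 (an adhesion protein that anterior visceral endoderm needs) at 101 against 2.27 CPM. The other leading genes, Foxq1, Srgn, Dkk1, Col4a2, Col4a1, S100g, Ctsh, Lama1 and Spink1, are given above. Over 101 cells the macrophage genes Pf4, Wfdc17 and Lyz2 also ranked among the highest 12, and over 98 cells they did not.

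Epithelial genes were mixed. Of 10 measured, 4 were at least 2-fold higher and 1 lower, and over the 98 cells 5 were higher, with the junction gene Tjp1 at a log2 ratio of 0.98 and 1.01 in turn. The simple-epithelium keratins Krt8 and Krt18 had log2 ratios of 2.34 and 2.22 and the tight junction gene Cldn6 one of 2.53. E-cadherin (Cdh1) and Epcam stayed within 2-fold at 0.35 and -0.45, and Cldn4 was lower at -3.27.

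The FGF axis showed the ligand missing from the endoderm-like cells. Fgf4, the epiblast ligand, had 5 UMIs over the 101 cells and 541 over the reference cells, which is 2.10 against 51.3 CPM and a log2 ratio of -4.47. Other ligands went the opposite way. Fgf3 stood at 53.4 against 1.71 CPM and was seen in 37.1% and 1.29% of thinned cells. Of the receptors, Fgfr1 was lower at a log2 ratio of -1.62, and Fgfr2 stood at 15.1 against 0.663 CPM, under the limit of 10 CPM in the mean. Of the ERK feedback genes, the phosphatase Dusp4 was higher at 3.57, Etv5 lower at -1.23, and Spry2 level at 0.01. Over the list, 3 of 13 measured genes were at least 2-fold higher (15.2% over all genes), 3 lower (5.01%), and the median was -0.41.

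In the BMP and Nodal list, 4 of 13 measured genes were at least 2-fold higher (15.2% over all genes) and 3 lower (5.01%). Over the 98 cells the counts were 4 and 3 of 12. Tdgf1 (Cripto, the co-receptor of Nodal) stood at 130 against 817 CPM, a log2 ratio of -2.65. Nodal itself was within 2-fold at 0.49. Of its secreted inhibitors, Lefty2 stood at 409 against 99.5 CPM, a log2 ratio of 2.04, and Lefty1 at 156 against 82.7 CPM, within 2-fold. The ligand Bmp4 was lower at -2.05, and the receptors Bmpr1a and Bmpr2 were higher at 1.44 and 1.51. The median of this list was 0.49 over 101 cells and -0.02 over the 98.

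Of the 4 core pluripotency genes, Sox2 and Nanog were at least 2-fold lower and Pou5f1 and Sall4 were within 2-fold. Pou5f1 (OCT4, the core factor) stood at 465 against 749 CPM, a log2 ratio of -0.69, and was seen in 80.4% of thinned endoderm-like cells and 99.2% of reference cells. Sox2 stood at 19.7 against 213 CPM, a log2 ratio of -3.41, and Nanog at 4.62 against 74.4 CPM, a log2 ratio of -3.95. Per cell, 72 of the 98 cells held no Sox2 UMI and 90 held no Nanog UMI, against 50 and 168 of 439 reference cells. Only 14 of the 98 held no Pou5f1 UMI, and the range of 0 to 60 UMIs lay within the reference range of 0 to 73. Sall4, a zinc finger factor of both epiblast and primitive endoderm, was within 2-fold at 0.47. The called doublet among the cells held 3 of the 11 Nanog UMIs and 6 of the 47 Sox2 UMIs.

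Of 17 measured naive-state genes, 7 were at least 2-fold lower (5.01% over all genes) and 1 was higher (15.2%), with a median log2 ratio of -0.64. Dppa5a stood at 3477 against 7564 CPM, and no cell of the 98 held fewer than 8 of its UMIs. All 3 macrophage-marker cells held it too, at 850 CPM, and the part of free RNA was not tested. The factors Klf2 and Esrrb had log2 ratios of -1.86 and -2.72 and the ligand Gdf3 one of -2.66. Klf4, Klf5 and Zfp42 (REX1) were within 2-fold at -0.64, 0.74 and 0.16. The gene at least 2-fold higher was Tbx3, at 1.09. Among primed-state genes, the DNA methyltransferase Dnmt3b was higher at 1.22 and the factor Pou3f1 lower at -2.33. Lef1, a WNT effector, had 0 UMIs against 105 and was at least 7.90-fold lower.

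The 12 lowest-ranked genes were Trh, Ifitm1, RP23-4H17.3, Sox2, Tcea3, Mylpf, Phc1, Hmces, Pim1, Tdgf1, Igfbp2 and Gm7325, with log2 ratios from -3.80 to -2.57. Trh, the precursor of thyrotropin-releasing hormone, stood at 21.4 against 301 CPM and was absent from 72 of the 98 cells and 82 of the 439 reference cells. Phc1, a Polycomb subunit, and Pim1, a kinase downstream of STAT3, had log2 ratios of -2.94 and -2.79. The interferon-induced membrane protein gene Ifitm1 stood at -3.57.

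Srf itself had 0 UMIs among 2380356 in the endoderm-like cells, which allows up to 1.26 CPM. At the level of wild-type reference cells (8.77 CPM) those cells would have held 20.9 UMIs, so the label of the library held in them. Of 13 measured cytoskeletal genes known as SRF targets, 6 were at least 2-fold higher than in the knockout reference cells and none lower. Over all genes the shares were 15.2% and 5.01%. The list's median log2 ratio was 0.78 (0.69 over the 98 cells). The actins were within 2-fold. Actb stood at 484 against 282 CPM and Actg1 at 613 against 414 CPM, while wild-type reference cells stood at 1097 and 1803 CPM. Tropomyosin 4 (Tpm4), on chromosome 8, had a log2 ratio of 2.33, and Zyx and Myh9, of focal adhesions and actomyosin, had 2.29 and 1.63.

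Of 7 measured immediate early genes, 4 were at least 2-fold higher (15.2% over all genes) and 1 lower (5.01%). Jun stood at 118 against 15.2 CPM, with 42.7 CPM in wild-type reference cells. Fos stood at 39.1 against 6.16 CPM, with 112 CPM in wild-type reference cells, and 31.2% of its UMIs came from 1 cell. Thus Jun was above and Fos below the wild-type level. Egr1, a direct SRF target, had 10 UMIs among the 2380356 of the 101 cells and 20 among the 10550317 of the reference cells. Scaled to these totals, its level was higher in the 101 cells, on few UMIs. In wild-type reference cells it stood at 40.8 CPM.

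The endoderm-like cells were unlike one another. They were split, with limits chosen after the cells were seen, into 13 Ttr/Apob cells (at least 3 UMIs of Ttr and Apob in sum), 31 factor-rich cells (at least 50% of their rule UMIs from Gata6, Gata4, Sox17 and Pdgfra), 54 receptor-rich cells and the 3 macrophage-marker cells. Of the 85 factor-rich and receptor-rich cells, 11 had a factor share between 40% and 60%, and 7 other cells held 1 or 2 UMIs of Ttr and Apob. The subsets are ranges, not types, and their differences are descriptions. Their median rule UMIs per 10000 were 7.56 in factor-rich, 27.1 in receptor-rich and 43.7 in Ttr/Apob cells.

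**Figure D3:**
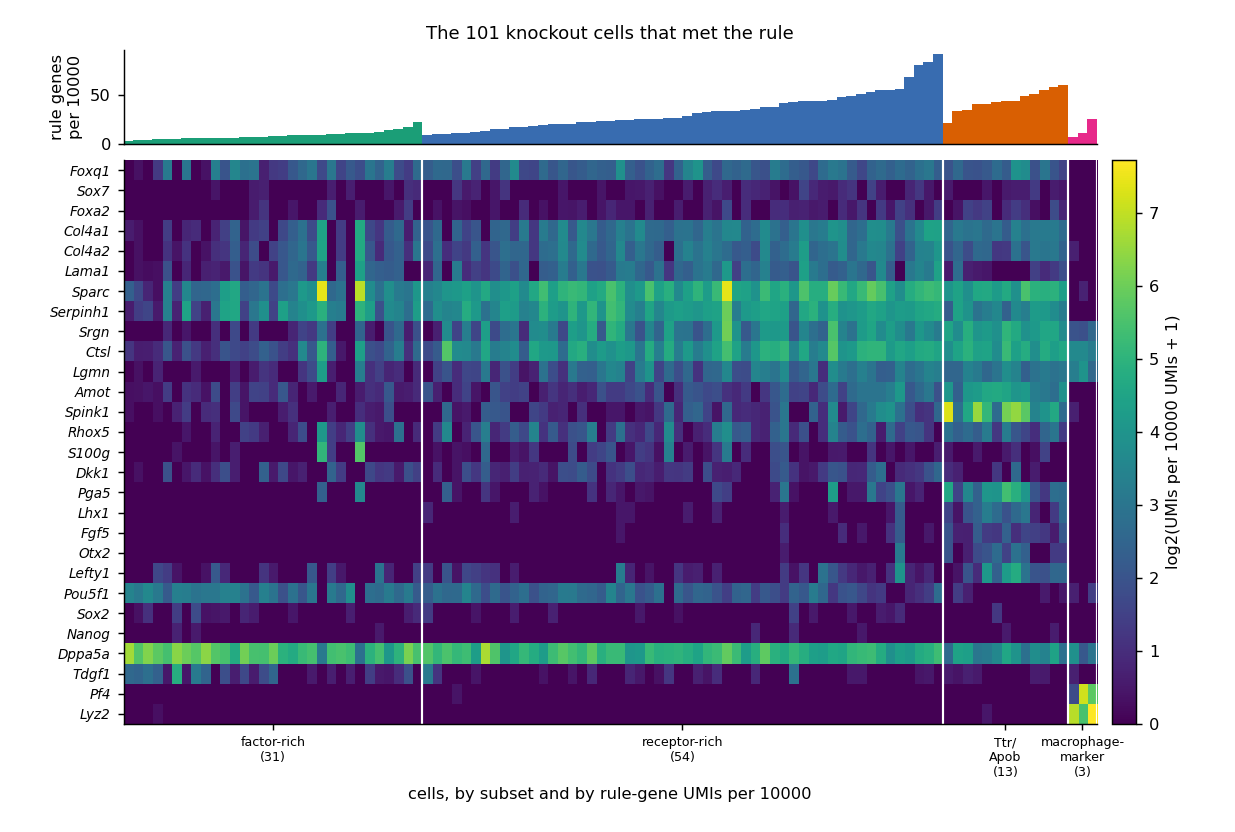
Columns are the 101 cells, ordered by subset and by rule UMIs per 10000 (bars above), rows are genes, and colour is log2(UMIs per 10000 UMIs + 1). Foxq1 is present across the first 3 subsets, Srgn and Ctsl are dim in the 31 factor-rich cells, Lhx1, Fgf5 and Otx2 stand out in the 13 Ttr/Apob cells, and Pf4 and Lyz2 fill the 3 macrophage-marker cells.

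The factor-rich cells were nearest to the reference cells. Pou5f1 stood at 704 CPM in them, close to the 749 CPM of the reference cells, then at 436 CPM in receptor-rich and 27.5 CPM in Ttr/Apob cells. Tdgf1 stood at 324, 42.6 and 24.1 CPM in the same order, the first value being 175 CPM without the 3 Gata6-only cells. Foxq1 stood at 344 CPM in factor-rich cells, against 490 and 489 CPM in the others. Srgn had the opposite order to Pou5f1, at 93.2, 1131 and 1907 CPM. Ctsl stood at 348, 1748 and 2154 CPM, the first value being 222 CPM without 2 factor-rich cells of very high Sparc. Thus the factor-rich cells lay closer to the other subsets in Foxq1 than in Srgn or Ctsl.

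The receptor-rich cells had the highest laminin levels. Lama1 stood at 571 CPM in them, 217 in factor-rich and 141 in Ttr/Apob cells, and Lamb1 at 555, 238 and 231 CPM. Summed over the basement membrane list, the levels were 6484, 2903 and 4749 CPM. Col4a1 was alike in receptor-rich (739 CPM) and Ttr/Apob cells (675 CPM) and lower in factor-rich cells (255 CPM). Lamc1 had the order of Col4a1, at 539, 361 and 222 CPM in receptor-rich, Ttr/Apob and factor-rich cells. The factor-rich levels leaned on 2 cells that also held the most Sparc of that subset. Without them, Col4a1 stood at 139 CPM, Lama1 at 147 CPM, Lamb1 at 183 CPM, Lamc1 at 150 CPM and the basement membrane list at 1693 CPM in the 29 factor-rich cells left. Fgf3 stood at 79.1 CPM in receptor-rich cells, 27.6 in factor-rich and 13.8 in Ttr/Apob cells, and Dkk1 at 145, 87.9 and 58.5 CPM.

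The 13 Ttr/Apob cells carried several transcription factors, named here after their values were seen, that were low in the other subsets. Lhx1, a LIM homeobox factor of anterior visceral endoderm, stood at 330 CPM (268 to 403) in them, 10.9 in receptor-rich, 0 in factor-rich and 0.190 in reference cells, and 12 of the 13 cells held it. Otx2, a head organiser factor, stood at 189, 7.75, 0 and 9.38 CPM. Eomes and Gsc, of the streak and of anterior visceral endoderm, stood at 155 and 65.4 CPM, against 4.93 and 0.474 CPM in the reference cells. Lhx1 and Otx2 were also found in 10 and 2 of the 54 receptor-rich cells, and Eomes in 20. Other genes of anterior visceral endoderm were mixed. Hhex was highest there, at 134 CPM against 45.7 in receptor-rich and 5.25 in factor-rich cells. Flrt3 was not, at 103 CPM in Ttr/Apob and 120 CPM in receptor-rich cells, nor was Dkk1, with the values given above. The parietal list summed to 2571 CPM in Ttr/Apob, 2182 CPM in receptor-rich and 679 CPM in factor-rich cells. The visceral list, which holds the Ttr and Apob that define the first subset, summed to 7413, 1325 and 1209 CPM in the same order. Of the 7413 CPM, Spink1 gave 4202 and Apoe 1858, and 1 cell held 329 of the 1221 Spink1 UMIs. Of the parietal genes in the Ttr/Apob cells, Srgn alone gave 1907 CPM. Lamb1 stood at 231 CPM and Pth1r at 99.8 CPM, the latter in 11 of the 13 cells. Plat stood at 6.88 and Vim at 3.44 CPM.

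Secreted signals in the same 13 cells included Lefty1 at 668 CPM, against 91.5 in receptor-rich and 82.7 in reference cells, and Fgf5 at 196 CPM, which all 13 cells held. Fgf8 stood at 107 CPM in 6 of the 13 cells and had 0 UMIs in the other subsets. Cer1, the Nodal and BMP inhibitor, had 7 UMIs in 2 of the 13 cells and none elsewhere in the endoderm-like or reference cells. Spink1 stood at 4202 CPM, against 219 in receptor-rich cells, Amot at 1370 against 260 CPM, and Hhex at 134 against 45.7 CPM. Klf4 and Vim were low in them, at 27.5 and 3.44 CPM, against 156 and 82.9 CPM in receptor-rich cells. In a ranking of genes of at least 100 CPM over a subset and the other cells, Ttr, which helps define the subset, came first in the Ttr/Apob cells. Next to it, Lhx1 (log2 ratio 5.55), Fgf5 (4.81) and Spink1 (4.76) led the Ttr/Apob cells, Tdgf1 (3.04) and Tmsb4x (2.25) the factor-rich and Hspg2 (1.69) and Lama1 (1.54) the receptor-rich cells.

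**Figure D4:**
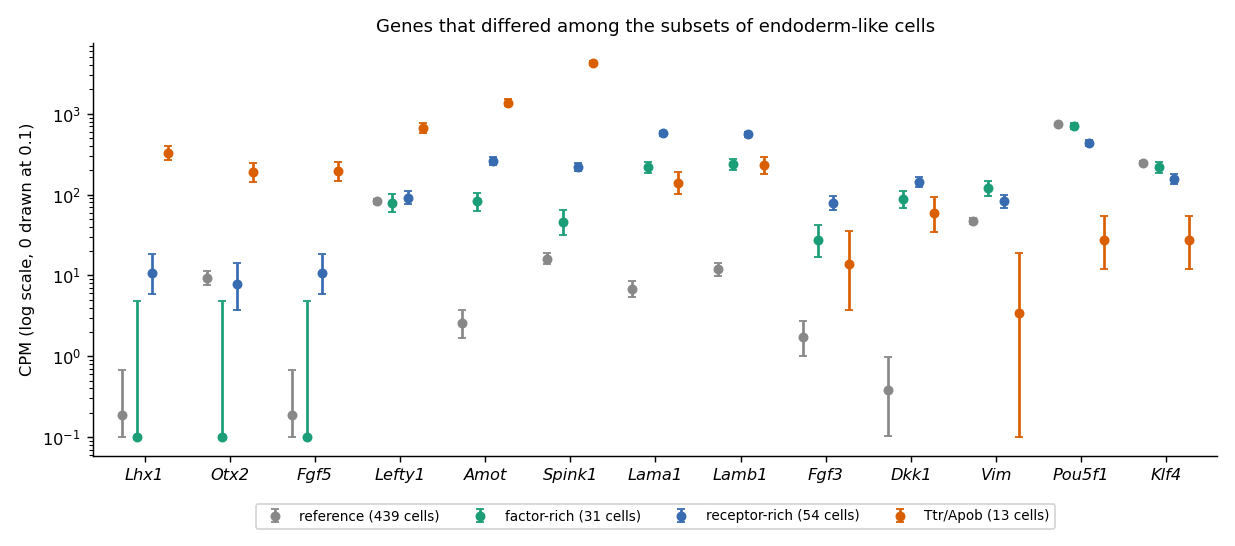
The y axis is CPM (log scale, 0 drawn at 0.1) of 13 genes in the reference cells and in the 3 subsets of endoderm-like cells, with exact Poisson 95% intervals of counting error. Lhx1, Otx2, Fgf5 and Spink1 are highest in the 13 Ttr/Apob cells, Lama1 and Lamb1 in the 54 receptor-rich cells, and Pou5f1 is nearly as high in the 31 factor-rich as in the reference cells.

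The genes whose thinned level followed the rule sum best over 97 cells were Srgn (Pearson correlation 0.71), Ctsl (0.71), Lgmn (0.69), Col4a1 (0.68) and Amot (0.65). These points share 1 library and a rule that includes the sum. Knockout cells within the mitochondrial and fibroblast limits of the reference cells, macrophage-marker cells left out, were arranged by rule UMIs per 10000. This placed cells on both sides of the threshold in 6 bands. In 37 cells with 1 to 5 per 10000, of which 6 were endoderm-like, Foxq1 stood at 69.0 CPM, against the 2.34 CPM of the band below and 430 CPM in 31 cells with 5 to 15. The 69.0 CPM is a mean over unlike cells. It rests on 60 UMIs, of which 1 endoderm-like cell held 20, and the 6 endoderm-like cells held 0 to 20 each. Sox2 stood at 132 CPM in those 37 cells, against 230 and 25.3 CPM in the neighbouring bands. Pou5f1 was 759 CPM there and came to 621, 516 and 207.5 CPM in the 3 bands above.

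The pattern over the bands differed between genes. Foxq1 was 430, 500.3 and 501.5 CPM in the upper 3 bands, so nearly level, while Srgn was 209.9, 981 and 1561 CPM and Col4a1 353, 659 and 867 CPM. Nanog was at or under 8.30 CPM in all 3, Sox2 at 25.3 CPM or under, and Pou5f1 still at 207.5 CPM in the highest band.

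**Figure D5:**
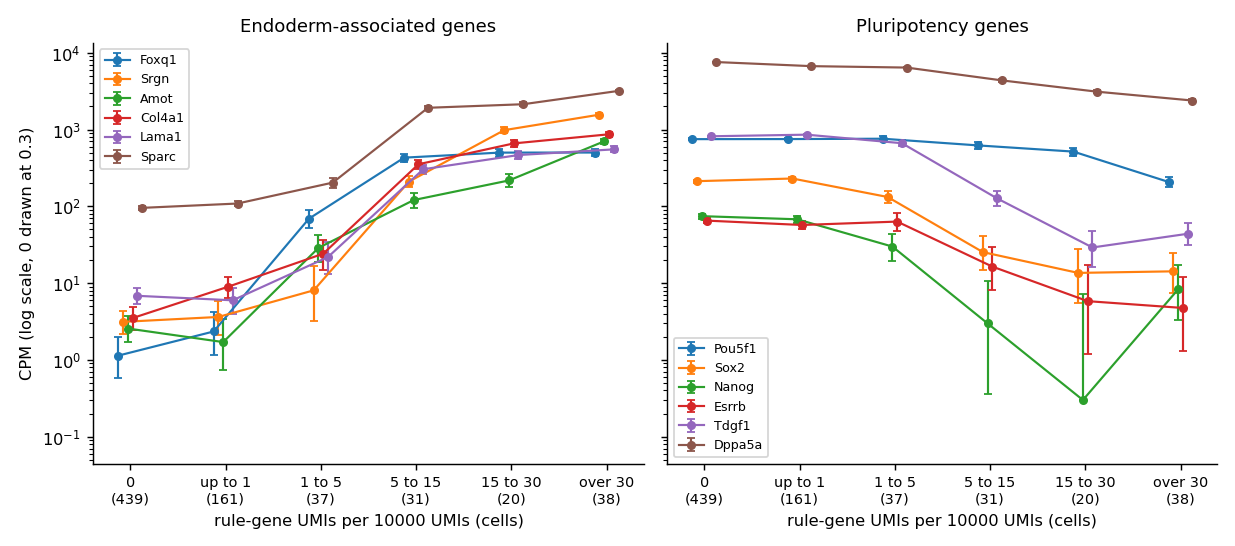
Levels in CPM (log scale, 0 drawn at 0.3) of 6 endoderm-associated (left) and 6 pluripotency genes (right) in knockout cells grouped by rule UMIs per 10000, with the number of cells in brackets and exact Poisson 95% intervals. Foxq1 is nearly level over the upper 3 bands, Srgn goes from 209.9 to 1561 CPM over them, and in those bands Sox2 is under 30 CPM while Pou5f1 is above 200 CPM.

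Very high Sparc marked a few cells. It reached 376, 305 and 234 UMIs in 3 cells, the next cell having 142. These 3 cells, picked for Sparc after their values were seen, also held 72, 14 and 97 UMIs of S100g and 0, 3 and 0 of Pou5f1.

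Chromosome 8, which carries Col4a1, Col4a2, Tpm4 and Plat, took a larger share of UMIs in many knockout cells. A cell was called raised when chromosome 8 took more than 1.2 times its median share in wild-type cells. This held for 67 of the 98 endoderm-like cells (68.4%, exact binomial interval 58.2 to 77.4), 215 of the 439 reference cells (49.0%, 44.2 to 53.8) and 90 of 919 kept wild-type cells (9.79%). With the genes that differed 2-fold between the classes left out of the share, the counts were 67 of 98 and 216 of 439. By subset, 24 of 31 factor-rich, 37 of 54 receptor-rich and 6 of 13 Ttr/Apob cells were raised. Between endoderm-like and reference cells that both had the usual chromosome 8 share, the basement membrane median was 2.81 against 3.18 over all cells.

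The summed S-phase genes stood lower in the endoderm-like cells, though few single genes passed 2-fold. In cells thinned to 9237 UMIs, the summed S-phase list had a median of 21 UMIs per endoderm-like cell (quartiles 16 to 28) and 31 per reference cell (25 to 37). The G2 and M list stood at 55 (46 to 66) and 61 (52 to 69). Of 39 measured S-phase genes, 3 were at least 2-fold lower (5.01% over all genes) and none higher, and of 51 measured G2 and M genes 1 was higher and none lower.

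Markers of other cell types were counted over the same cells. The 12 fibroblast genes summed to 16.4 CPM in the endoderm-like and 32.2 CPM in the reference cells, none reached 10 CPM in the mean, and Col1a1, Col3a1, Postn, Lox and Lum were at 0 in the endoderm-like cells. The 9 macrophage genes summed to 631 against 11.2 CPM, with 6 of 6 measured genes higher over 101 cells, and to 7.26 CPM over 98 cells, with none reaching the limit. Of 9 neuroectoderm genes 1 was measured and was lower, of 9 trophectoderm genes 1 was measured and was higher (Tead4, log2 ratio 1.93), and the 2-cell genes summed to 1 UMI in either class. Of 9 mesoderm and streak genes the 2 measured were higher, Lhx1 and Eomes. The 13 Ttr/Apob cells held 96 UMIs of Lhx1 and 45 of Eomes, and the 54 receptor-rich cells held 14 and 29. The part of these lists in the results was not tested.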

How the data were processed

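Single-cell RNA libraries of 1 SRF knockout and 1 wild-type iPSC culture were analysed. The authors deposited raw counts, the number of UMIs for each gene in each cell, stored as integers per the file headers and not normalized. The submitters' processing notes name Cell Ranger 2.0.0, Seurat 3.1.1 and the build mm10, without saying what each was used for, and how cells were told from empty droplets is not given in the sources used here. Strand handling and the counting of reads shared by paralogs or overlapping genes are not given either, so values of such genes (Col4a1 and Col4a2 overlap at their 5′ ends) are uncertain.

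Everything else was computed from these counts with Python 3.11.15, numpy 2.4.6, scipy 1.17.1, pandas 2.3.3, matplotlib 3.10.9, scanpy 1.11.5 (Scrublet doublets, called cells kept) and, for TMM scaling, edgeR 4.0.16 in R 4.3.3. Of 27998 genes, 27722 matched GENCODE M21 by identifier, which gave positions. Counts were summed over cells, scaled to CPM and compared as log2 ratios with 0.5 counts added, without a test. Intervals are exact (Poisson for levels, conditional for ratios, Clopper-Pearson for shares) and cover counting error only, at 95% confidence. A count of 0 was read as up to 3 counts. Cells were thinned without replacement. Computations were tested on simulated data.

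The cells, the gene lists and the alternatives were chosen with earlier results of these data known. Named genes are the 12 highest and 12 lowest by log2 ratio of at least 50 CPM without the rule genes, up to 8 of each list by role, Srf, and the 5 best correlated with the rule sum. Genes of single subsets and Fgf8, Gsc and Tpm4 were picked after their values were seen. Alternatives were other scalings, minimum levels, cell weights, rule thresholds, thinning, mitochondrial and fibroblast limits, doublets left out and wild-type reference cells. Leaving out macrophage-marker cells, cells with Gata6 as their 1 rule gene and cells of raised chromosome 8 share was added after seeing the data.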

Additional observations from a re-analysis of the deposited data

Results flagged for a closer look

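The filter on cells removed 76 knockout cells, and 3 of these met the endoderm rule, which drew attention because they lie outside every comparison above, while 0 of the 35 wild-type cells removed met it. The 3 cells held 50, 43 and 14 UMIs of the rule genes among 7668, 8422 and 9351 UMIs. Their mitochondrial shares were 19.2%, 21.5% and 15.2%, above the limit of 10%. They held 3, 3 and 1 UMIs of Foxq1, 72, 68 and 66 of Sparc and 3, 3 and 2 of Pou5f1.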

How the results depend on the processing

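Over 16 alternatives, 806 of 816 log2 ratios of 51 named genes kept their sign. These genes include the highest and lowest by the same ratio, so few signs could be expected to turn. Besides 8 reversed values, 115 of the 816 lay outside the counting-error interval of the main value. No paired analysis was possible because there is 1 library for each genotype, and none could be left out. The count of genes lower was 569 with totals free of mitochondrial and ribosomal protein genes. Genes higher and lower numbered 2330 and 1210 at a minimum of 1 CPM and 279 and 92 at 50 CPM, and genes higher 1666 in cells with the usual chromosome 8 share. The basement membrane median was 2.62 with those totals, 2.69 at 1 CPM, 4.83 at 50 CPM, 2.67 with cells weighted alike, 2.96 from 20 rule UMIs, 2.94 thinned and 2.81 at the usual chromosome 8 share. The factor median was 6.24 at 1 CPM. The endolysosome median was 2.19 at 50 CPM, 1.56 without macrophage-marker cells, 1.59 also without Gata6-only cells and 2.24 at the usual chromosome 8 share. Core pluripotency came to -0.69 at 50 CPM and -2.36 from 20 rule UMIs, matrix secretion to 2.01 from 20 rule UMIs and 2.24 against wild-type cells, and the naive list to -1.01 against wild-type cells and -0.90 at the usual chromosome 8 share. Wild-type cells meeting the rule numbered 1 from 20 UMIs, without Dab2 or without macrophage-marker cells.

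Signs turned for the trophectoderm list (-0.33 with those totals, -0.70 at 1 CPM, -0.66 against wild-type cells), immediate early genes (-0.24) and Fos (-1.51) against wild-type cells, S100a6 (0.35, likewise), and Wfdc17 (-0.76, -1.10 and -1.04) and Lyz2 (-0.78, -1.12 and -1.06) from 20 rule UMIs, without macrophage-marker cells and also without Gata6-only cells. Actb and Actg1 were also below the wild-type cells. Fewer genes or cells enter the stricter settings, and otherwise the cause was not tested. Counting error is widest for genes near 0 in the reference cells, such as Foxq1 with 12 UMIs there.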

Other observations

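Further genes, chosen after their values were seen, stood apart in the endoderm-like cells. Car4, a carbonic anhydrase of the cell surface, had a log2 ratio of 4.17. Podxl, a sialomucin of apical membranes, stood at 223 against 7.49 CPM in the reference cells, and Npl, an enzyme of sialic acid breakdown, at 126 against 6.82 CPM. Fn1, fibronectin, was lower, at 39.5 against 171 CPM, unlike the laminins and collagen IV. The homeobox gene Rhox5 stood at 255 against 14.7 CPM, with 0 to 36 UMIs per cell over the 98 cells and 0 to 44 over the reference cells.

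Glucose transporters differed in direction. Slc2a3 (GLUT3) stood at 1051 against 251 CPM, a log2 ratio of 2.07, and Slc2a1 (GLUT1) was lower at -1.36. Pdk1, which limits the entry of pyruvate into mitochondria, was lower at -2.35. Of 16 measured glycolysis genes, 12 were within 2-fold, and the list's median was -0.15.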
